A study of Mus musculus with 12 samples.

Results

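The Hox cluster genes were taken as every array probe whose gene name is Hoxa, Hoxb, Hoxc or Hoxd followed by a number. The members described are 37 genes with 48 probes, among 41174 distinct probes in all, and no probe carried the name Hoxc11. A gene was marked as detected when 1 of its probes was well above background, by the flag of the scanner software, on 2 or more of the 12 arrays. This gave 27 detected genes and 10 silent ones, and 25 of the detected genes entered the test across 20048 genes. The RNAs came from mouse embryonic stem (ES) cells grown on gelatin with leukemia inhibitory factor. Per the labels they were from the Dicer1-null clones 27G5 and 27H10 and from wild-type ES cells. For each clone there were cells overexpressing Dnmt1, cells overexpressing Dnmt3a and Dnmt3b, and the Dicer1-null cells themselves. Every cell overexpressing a methyltransferase thus also lacked Dicer. Each name in the labels was taken as 1 RNA, which the labels do not state. Each array compared 2 of these RNAs, each pairing was repeated with the dyes exchanged, and the clone was the replicate (n = 2). The labels give neither the deleted stretch of Dicer1, the vector that drives the methyltransferases, nor separate cultures of a clone, so p-values measure only the spread between these samples.

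Hox genes encode homeodomain transcription factors that lie side by side in clusters and give cells their position along the head-to-tail axis of the embryo. Low-numbered genes are switched on first and act towards the head, high-numbered genes later and towards the tail, and retinoic acid switches on the low-numbered end. In ES cells the clusters are held back by Polycomb proteins, and Hox expression is low. Dicer cuts microRNA precursors, Dnmt1 copies DNA methylation at replication, and Dnmt3a and Dnmt3b add it to new sites.

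The clusters also hold microRNA genes that need Dicer to mature, and their sequences are shown because Hox messages are among their known targets. The arrays analysed here did not measure mature microRNAs. The RefSeq sequences on GRCm38.p6 are given with the seed, bases 2 to 8, in capitals.
miR-10a-5p: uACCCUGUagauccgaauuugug
miR-10b-5p: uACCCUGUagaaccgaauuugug
miR-196a-5p: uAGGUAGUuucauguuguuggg
miR-196b-5p: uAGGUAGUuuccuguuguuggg
The miR-10 pair shared the seed ACCCUGU and lay in the HoxB cluster (chr11:96317186-96317208, plus strand) and the HoxD cluster (chr2:74726074-74726096, plus strand). The miR-196 pair shared the seed AGGUAGU. miR-196a-5p lay at chr11:96265187-96265208 and chr15:102973365-102973386 on the plus strand, and miR-196b-5p at chr6:52230129-52230150 on the minus strand. Hoxb8, the mouse message that miR-196 is known to cleave, was among the silent genes.

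The labels were checked first. Dicer1 had log2 ratios of -0.50 and -0.56 in clones 27G5 and 27H10 for Dicer-null over wild type (adjusted p = 0.004, limma). Dnmt1 did not pass the test in the line labelled as overexpressing it (0.27 ± 0.23, SD, n = 2, adjusted p = 0.111). In that line Dicer1 (-0.63 ± 0.09), Dnmt3a (-1.34 ± 0.58) and Dnmt3b (-1.06 ± 0.40) were lower than in the Dicer-null parent (adjusted p = 0.00674, 0.0406 and 0.0307, limma). In the line labelled as overexpressing Dnmt3a and Dnmt3b, Dnmt3a measured -1.03 ± 0.92 (adjusted p = 0.0824) and Dnmt3b was lower at -1.04 ± 0.59 (adjusted p = 0.034, limma). There the normalised log2 signal averaged 9.64 against 10.41 in the Dicer-null parent for Dicer1, and 13.48 against 13.22 for Dnmt1. In the line labelled with Dnmt1, Dnmt1 averaged 13.51 against 13.25. All of these genes thus moved the same way in both labelled lines and do not tell the lines apart. Whether these probes match the introduced sequences is not given in the sources used here, so the lines are called Dnmt1-labelled and Dnmt3a,3b-labelled, and every direction below is that of the labelled line. All 8 pluripotent ES cell markers were well above background on every array of all 7 RNAs. The median signal of an array lay between 112 and 135 in green and between 234 and 334 in red. The overexpression arrays of each clone lay on a slide of their own, so slide and clone cannot be told apart there, and the 4 arrays with wild-type RNA lay on the third.

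Detection was counted for each cluster, and a difference between clusters was not tested. In HoxA 9 of 10 genes described were detected, in HoxB 7 of 10, in HoxC 5 of 8 and in HoxD 6 of 9. The genes Hoxa11, Hoxb1, Hoxb5, Hoxc8, Hoxc12, Hoxd3 and Hoxd11 had no probe well above background on any array, which for Hoxb1 covers 10 spots of its probe. Hoxb8, Hoxc13 and Hoxd10 reached it with a probe on 1 array, Hoxb8 with each of its 2 probes on a different array. Silent here means only that this flag was not set, and it sets no limit on the level. With the scanner's less strict flag for a positive and significant signal, 35 of the 37 genes were detected and 2 silent. Hoxa5 and Hoxc10 were detected on 2 arrays, both with RNA of clone 27H10, and did not enter the test because no RNA carried the flag on both arrays of a pair.

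**Figure D1:**
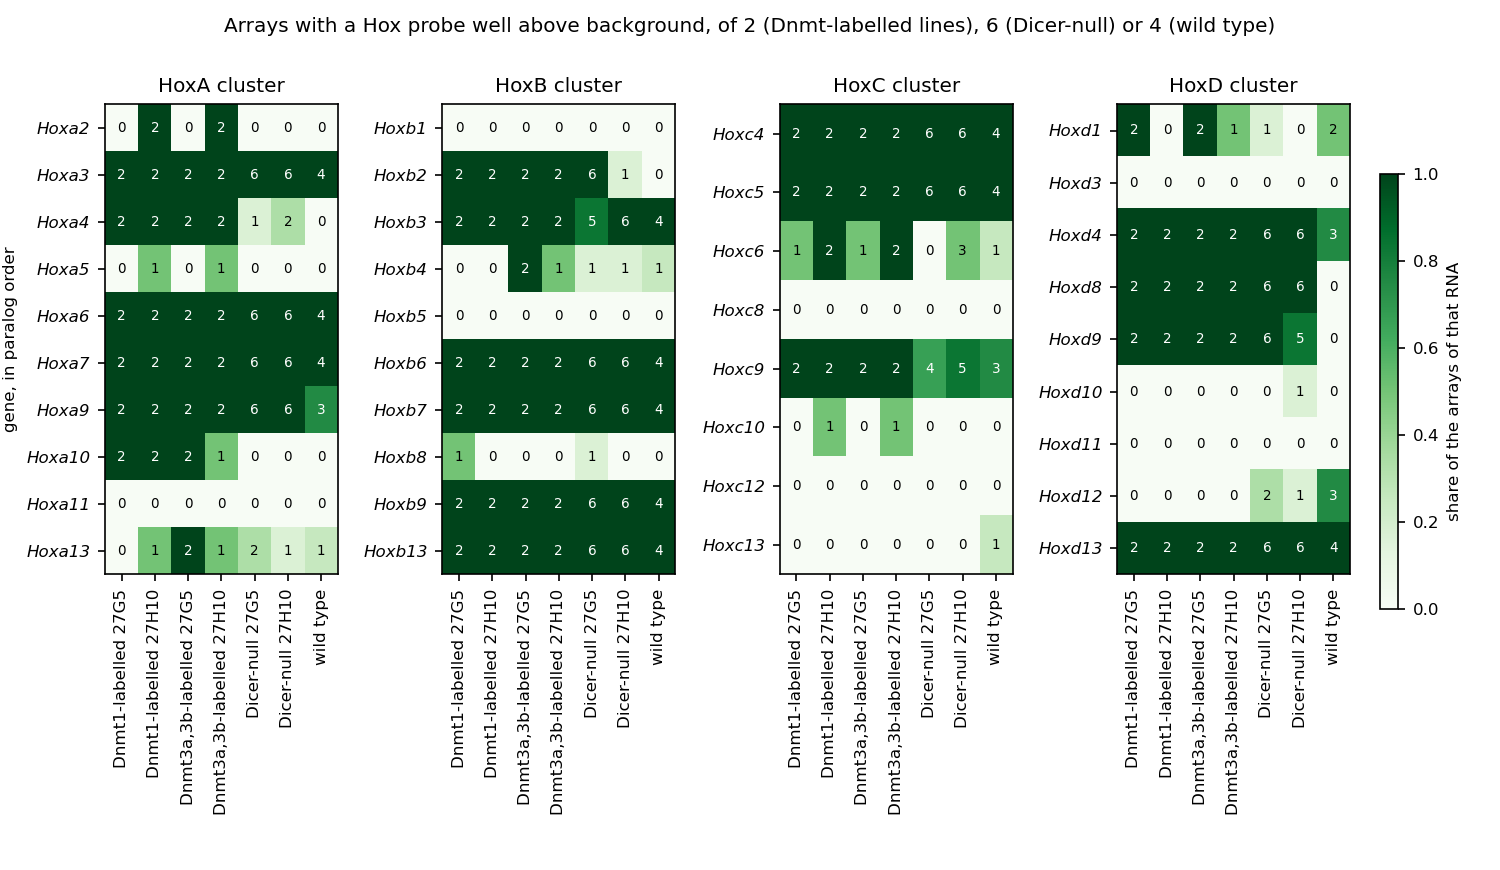
Number of arrays on which a Hox gene had a probe well above background, for the 37 genes described (rows, in paralog order within each cluster) and the 7 RNAs (columns), out of 2 arrays for each Dnmt-labelled line, 6 for each Dicer-null clone and 4 for wild type; the colour is the share of those arrays. Hoxd8 and Hoxd9 carry the flag on 0 of 4 wild-type arrays and on 5 or 6 of 6 Dicer-null arrays of each clone.

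The number of genes that carried the flag on every array of an RNA was 20 and 21 in the Dnmt1-labelled lines of clones 27G5 and 27H10, 22 and 20 in the Dnmt3a,3b-labelled lines, 15 and 14 in the Dicer-null clones and 11 in wild type. These RNAs were on 2, 2, 6 and 4 arrays, and the flag on every array is easier to reach with fewer arrays. Wild-type RNA was only on the third slide, read with version 9.1.3.1 of the scanner software. The Dnmt-labelled lines were only on the other slides, read with version 9.5.1.1. RNA, slide and software version thus cannot be told apart in these counts, and no share over all genes was computed for each RNA. Hoxa3, Hoxa6, Hoxb6, Hoxc4, Hoxc5, Hoxa7, Hoxb7, Hoxb9, Hoxb13 and Hoxd13 carried it on every array of every RNA. Hoxa2, a hindbrain gene, carried it only in the Dnmt1-labelled and Dnmt3a,3b-labelled lines of clone 27H10, on 2 of 2 arrays each. Hoxd12, a tail-end gene of limb and trunk, carried it on 3 of 4 arrays for Dicer-null and 3 of 4 for wild-type RNA on the slide with wild-type RNA, and on 0 of the 8 arrays of the other slides for either RNA. The Dicer-null RNA of each clone was on the wild-type slide and on the slide of that clone, so for this gene the flag went with the slide, and for wild-type RNA slide and RNA cannot be told apart.

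The first comparison set Dicer-null cells against wild-type ES cells. Of the 25 Hox genes tested, 5 were higher (Hoxa9, Hoxa10, Hoxb13, Hoxd8 and Hoxd9) and 1 was lower (Hoxa7) at an adjusted p under 0.05, which is 6 called or 24%. Over all genes tested 40.5% were called, 20.4% higher and 20.1% lower, so the Hox share was no larger than the background. The median log2 ratio of the Hox genes was 0.05, and that of all genes 0.01. The 5 genes called higher have paralog numbers from 8 to 13, and the gene called lower lies in the middle of its cluster. Hoxa13, Hoxb9, Hoxc9, Hoxd12 and Hoxd13, in the same range of numbers, were tested and not called. No pattern along the clusters is read from these calls. A gene could enter the test through only the RNA in which it is bright, which favours genes that differ. Among the 15 genes that carried the flag on both wild-type arrays of a clone, 3 were called. The share of all genes called under this filter was not computed, so this count has no background beside it.

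Hoxb13, the tail-end gene of the HoxB cluster, was well above background in both RNAs on all 4 arrays. Its log2 ratio was 0.71 and 0.63 on the arrays of clone 27G5 and 0.75 and 0.76 on those of clone 27H10. All 4 arrays were above 0, and the mean was 0.71 ± 0.06 (SD, n = 2, adjusted p = 0.00506, limma). Its normalised log2 signal averaged 7.42 in Dicer-null and 6.70 in wild-type RNA, and the probe lay at chr11:96304167-96304226 on build mm7.

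Hoxd8 and Hoxd9, neighbours in HoxD that pattern the trunk, were well above background on all 4 arrays in Dicer-null RNA and on 0 of 4 in wild-type RNA. Their ratios are therefore lower bounds: averaged over the clones, both were at least 1.37-fold higher in Dicer-null cells (adjusted p = 0.02 for Hoxd8 and 0.0188 for Hoxd9, limma). The measured log2 ratio of Hoxd8 was 0.66 and 0.39 for clone 27G5 and 0.58 and 0.42 for clone 27H10. That of Hoxd9 was 0.86 and 0.48 for clone 27G5 and 0.38 and 0.33 for clone 27H10. All 8 values were above 0.

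Hoxa9, a gene of blood progenitors and trunk, rose by 0.44 and 0.51 in the 2 clones (0.47 ± 0.05, SD, n = 2, adjusted p = 0.0328, limma). Hoxa10 passed the test (adjusted p = 0.0467) although neither RNA was well above background on any of the 4 arrays, so no fold is given for it. Hoxa7 measured -0.38 ± 0.05 (SD, n = 2, adjusted p = 0.029, limma).

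Genes that did not pass the test are given by their values in clones 27G5 and 27H10. Hoxb9 measured 0.81 and 0.59 (adjusted p = 0.0589, limma), Hoxb7 -0.38 and -0.57 (0.0749) and Hoxb3 -0.43 and -0.28 (0.0555). Hoxb2, a hindbrain gene, measured 0.68 and 0.14 and did not pass the test (adjusted p = 0.154, limma). It was well above background on 0 of 4 arrays in wild-type RNA, so these ratios are only bounded. Averaged over the clones the bound was 1.22-fold higher in Dicer-null cells, which clone 27H10 alone did not reach. In clone 27G5 it carried the flag on 6 of 6 Dicer-null arrays and in clone 27H10 on 1 of 6. The ratios of Hoxa2, Hoxa3, Hoxa4, Hoxa6, Hoxa13, Hoxb4, Hoxb6, Hoxc4, Hoxc5, Hoxc6, Hoxc9, Hoxd1, Hoxd4, Hoxd12 and Hoxd13 lay between -0.16 and 0.21 in both clones.

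Fibroblast markers moved in this comparison too. Of 14 measured, 8 were lower and 3 higher in Dicer-null cells (median log2 ratio -0.68), with Col1a1, a collagen chain, at -4.09 ± 0.13 and Dcn, the matrix protein decorin, at 2.02 ± 0.28 (SD, n = 2). All 14 were well above background on all 4 wild-type arrays, while Col6a1 and Postn were so on 0 of 6 arrays of each Dicer-null clone. Trophoblast markers had 1 of 8 higher and 4 lower, primitive endoderm markers 0 and 3 of 8, mesoderm markers 1 and 3 of 8, neuroectoderm markers 3 and 2 of 8, and pluripotent ES cell markers 6 and 0 of 8. The part of these markers in the Hox values was not tested. In bulk RNA, fewer cells of a type and less RNA per cell cannot be told apart.

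**Figure D2:**
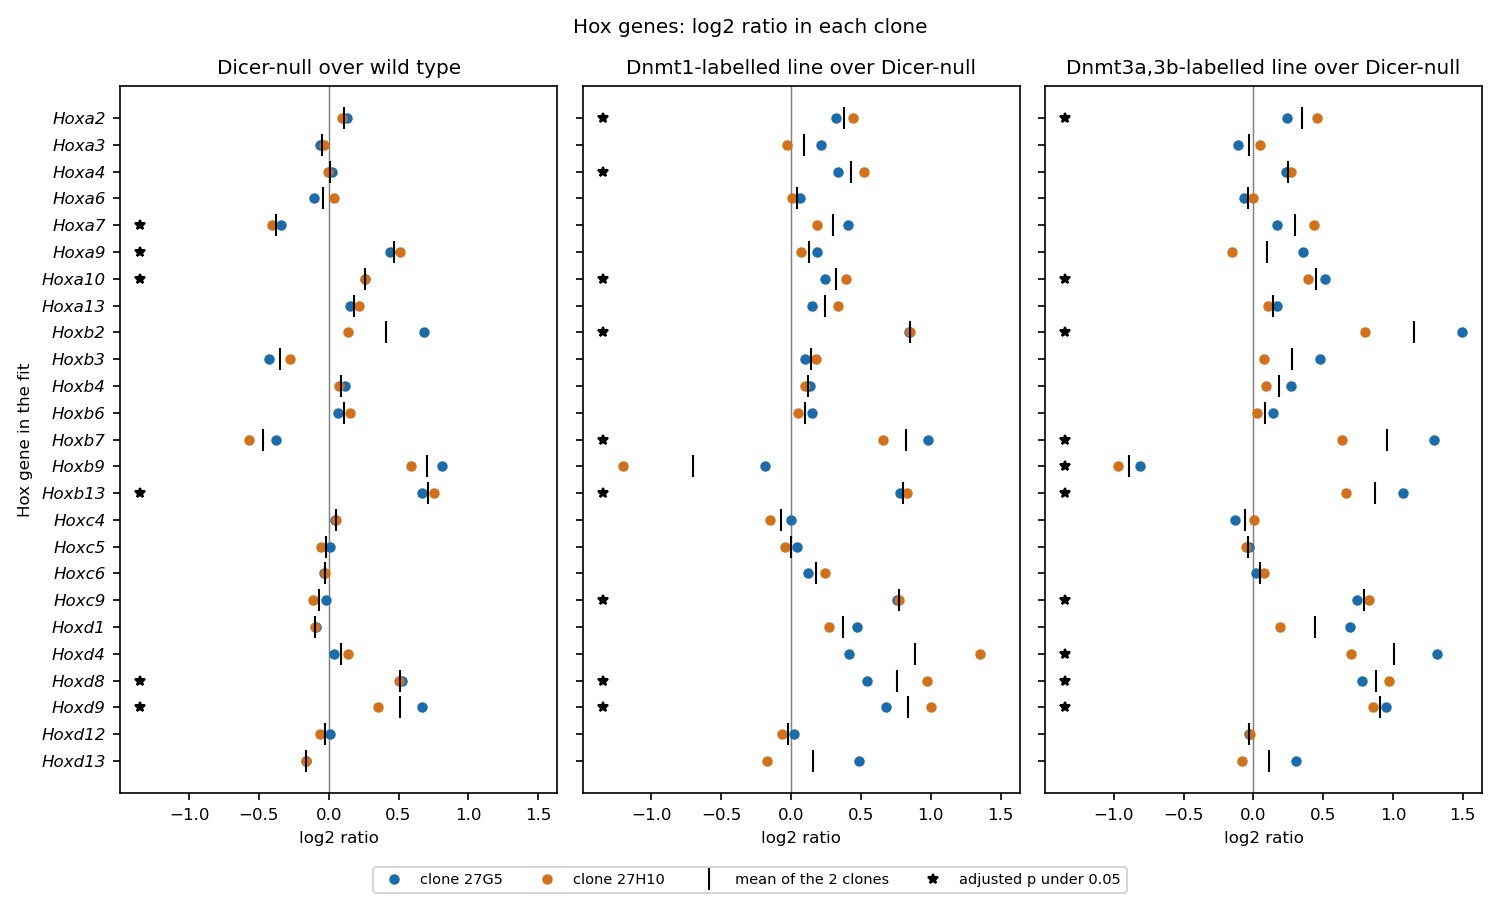
Log2 ratio of each of the 25 Hox genes tested (rows) in the 3 comparisons (panels), with a point for each clone (n = 2, each the mean of 2 dye-exchanged arrays), a bar at the mean and a star for an adjusted p under 0.05. In the Dnmt1-labelled line all 9 starred genes lie above 0, and in the Dnmt3a,3b-labelled line 9 lie above 0 and Hoxb9 below.

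The second comparison set the Dnmt1-labelled lines against their Dicer-null parents. Of 25 Hox genes 9 were higher (Hoxa2, Hoxa4, Hoxa10, Hoxb2, Hoxb7, Hoxb13, Hoxc9, Hoxd8 and Hoxd9) and 0 lower, or 36% called, while 14 had an unadjusted p under 0.05. Over all genes 23% were called, 12% higher and 11% lower. The median log2 ratio was 0.24 over the Hox genes and 0.01 over all genes, and 21 of the 25 lay above 0. The share of all genes above 0 was not computed. Here too a gene could enter the test through only the RNA in which it is bright. The median and the count above 0 are therefore not read as a shift of the Hox genes. The genes called came from all 4 clusters: 3 in HoxA, 3 in HoxB, 1 in HoxC and 2 in HoxD. Among the 17 genes that carried the flag on both arrays of a Dicer-null arm, 6 were called. The share of all genes under that filter was not computed, and the 23% is for genes without it.

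Hoxc9, a trunk gene, was the only HoxC gene of the 4 tested that was called in this comparison. It measured 0.72 and 0.80 for clone 27G5 and 0.56 and 0.99 for clone 27H10 (mean 0.77 ± 0.01, SD over clones, n = 2, adjusted p = 0.00406, limma). The other HoxC genes tested, Hoxc4, Hoxc5 and Hoxc6, lay between -0.15 and 0.24 in the clones.

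Hoxb13 measured 0.95 and 0.60 for clone 27G5 and 0.99 and 0.67 for clone 27H10 (mean 0.80 ± 0.04, SD, n = 2, adjusted p = 0.00885, limma). On all 4 arrays it was above 0, as it was for Dicer-null over wild type. Hoxb7, expressed in trunk and blood cells, measured 0.98 and 0.66 in the clones (0.82 ± 0.23, adjusted p = 0.0257). Hoxb2 had a mean of 0.85 (adjusted p = 0.0333). In clone 27H10 the Dicer-null RNA was not well above background on either array, so the ratio there is only bounded.

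Hoxd8 measured 0.60 and 0.48 for clone 27G5 and 0.92 and 1.03 for clone 27H10 (0.76 ± 0.31, SD, n = 2, adjusted p = 0.0126, limma). Hoxd9 measured 0.67 and 0.69 for clone 27G5 and 1.22 and 0.79 for clone 27H10 (0.84 ± 0.23, adjusted p = 0.00903, limma). Hoxa2, Hoxa4 and Hoxa10, each by its brightest probe, were well above background on 0 of 4 arrays in Dicer-null RNA and on 2, 4 and 4 of 4 in the Dnmt1-labelled lines. Averaged over the clones, these probes of Hoxa4 and Hoxa10 were at least 1.35-fold and 1.21-fold higher there (adjusted p = 0.0183 and 0.0396, limma). The second Hoxa4 probe went the other way, at -0.07, so the bound is for the brightest probe only. Hoxa2 passed the test (adjusted p = 0.0305, limma). In clone 27G5 neither RNA was well above background for Hoxa2, so no fold is given for it.

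Hoxd4, a hindbrain and neck gene, measured 0.42 in clone 27G5 and 1.35 in clone 27H10 (0.89 ± 0.66, SD, n = 2) and did not pass the test (adjusted p = 0.0522, limma). Hoxb9 measured -0.19 and -1.21 (adjusted p = 0.0837), and both genes differed between the clones by more than 0.9 on the log2 scale. Hoxa7, Hoxa13 and Hoxd1 measured 0.30, 0.24 and 0.37 on average (adjusted p = 0.084, 0.0831 and 0.0976). The means of Hoxa3, Hoxa6, Hoxa9, Hoxb3, Hoxb4, Hoxb6, Hoxd12 and Hoxd13 lay between -0.02 and 0.16.

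The third comparison set the Dnmt3a,3b-labelled lines against the same Dicer-null RNAs. Because both comparisons share those RNAs, a gene that is low in a Dicer-null RNA is high in both. Of 25 Hox genes 9 were higher (Hoxa2, Hoxa10, Hoxb2, Hoxb7, Hoxb13, Hoxc9, Hoxd4, Hoxd8 and Hoxd9) and 1 was lower (Hoxb9), or 40% called. Over all genes 21.2% were called, 10.4% higher and 10.8% lower, and the median log2 ratio was 0.25 over the Hox genes and 0.01 over all genes. This median too includes genes that could enter the test through only the RNA in which they are bright. Among the 18 genes that carried the flag on both arrays of a Dicer-null arm, 8 were called. Again the share of all genes under that filter was not computed.

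Hoxc9 measured 0.64 and 0.84 for clone 27G5 and 0.62 and 1.04 for clone 27H10 (0.79 ± 0.06, SD, n = 2, adjusted p = 0.00423, limma).

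Hoxb2 measured 0.96 and 2.03 on the 2 arrays of clone 27G5 and 0.76 and 0.84 on those of clone 27H10 (1.15 ± 0.49, SD, n = 2, adjusted p = 0.0156, limma). The array at 2.03 stood apart from the other 3, and in clone 27H10 the Dicer-null RNA was again not well above background. Hoxb7 measured 1.29 and 0.64 in the clones (adjusted p = 0.0171), Hoxb13 1.07 and 0.66 (adjusted p = 0.00791) and Hoxd4 1.32 and 0.70 (adjusted p = 0.0393). In all 3 clone 27G5 had the higher value.

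Hoxd8 measured 0.87 and 0.69 for clone 27G5 and 1.00 and 0.95 for clone 27H10 (0.88 ± 0.14, SD, n = 2, adjusted p = 0.00919, limma). Hoxd9 measured 1.22 and 0.69 for clone 27G5 and 1.07 and 0.65 for clone 27H10 (0.91 ± 0.07, adjusted p = 0.00808, limma). Hoxa10 and Hoxa2 were well above background on 3 and 2 of 4 arrays in the Dnmt3a,3b-labelled lines and on 0 of 4 in Dicer-null RNA. Averaged over the clones, Hoxa10 was at least 1.33-fold higher (adjusted p = 0.0166, limma). Hoxa2 passed the test (adjusted p = 0.0404, limma). In clone 27G5 neither RNA was well above background for Hoxa2, so no fold is given for it.

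Hoxb9, a trunk gene, was the only Hox gene called lower in a Dnmt-labelled line. It measured -1.28 and -0.34 on the arrays of clone 27G5 and -1.14 and -0.80 on those of clone 27H10 (-0.89 ± 0.11, SD, n = 2, adjusted p = 0.0467, limma). All 4 arrays lay below 0. Genes not called lay between -0.15 and 0.48 in the clones, except Hoxd1, which measured 0.69 and 0.19 (adjusted p = 0.0658). Among them Hoxa4 measured 0.23 and 0.27 (adjusted p = 0.0747).

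**Figure D3:**
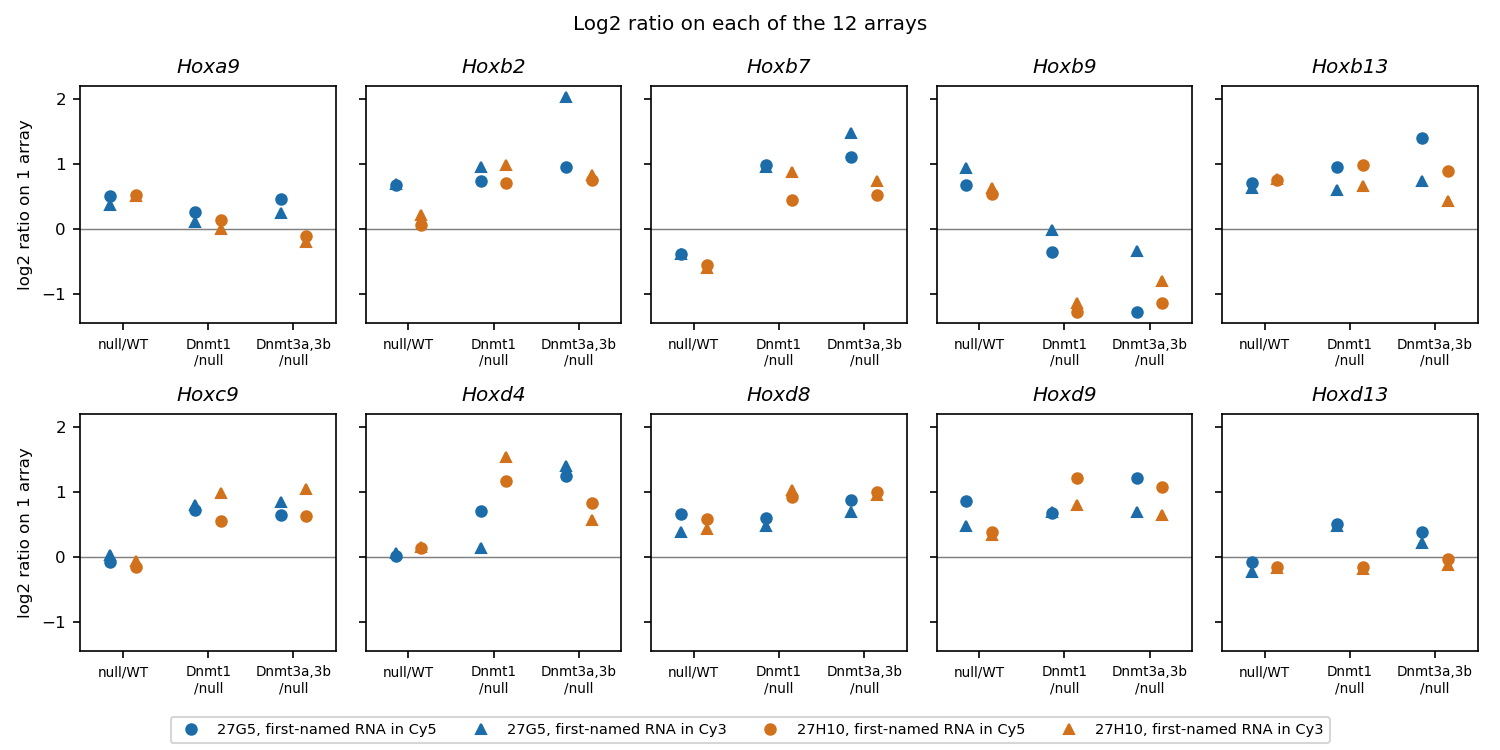
Log2 ratio on each array for 10 Hox genes in the 3 comparisons, coloured by clone and marked by the dye of the first-named RNA. Hoxb13, Hoxd8 and Hoxd9 lie above 0 on all arrays, and Hoxd13 lies on opposite sides of 0 in the 2 clones for both Dnmt-labelled lines.

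Whether the labelled lines differed from each other was tested as the Dnmt3a,3b coefficient minus the Dnmt1 coefficient, a test added after the data had been seen. It called 0% of all genes (0 of 20048, limma) and 0 of 25 Hox genes, and 189 genes had an unadjusted p under 0.05, none of them a Hox gene. As a difference within each clone the counts were 0 called and 215. The differences ran opposite ways in the clones for 20 of 25 Hox genes (80%) and for 61.9% of all genes. The test therefore gives only wide intervals and does not show that the lines were alike. The difference was 0.12 for Hoxd4 (95% confidence interval -0.74 to 0.98), -0.20 for Hoxb9 (-1.01 to 0.62) and -0.18 for Hoxa4 (-0.46 to 0.10), the genes called in 1 of the lines.

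How firmly these calls hold depends on how RNAs used on several arrays are treated. With the shared RNAs written into the error model, 0 Hox genes were called for Dicer-null over wild type, where 1 had an unadjusted p under 0.05, and 1 in each Dnmt-labelled line, Hoxc9 in both (adjusted p = 0.0405 with Dnmt1 and 0.0441 with Dnmt3a,3b, limma). The share of all genes called fell as well, to 9.71%, 2.39% and 1.91%. With clone 27G5 or clone 27H10 left out, 1 ratio stood for the comparison. No Hox gene was then called for Dicer-null over wild type or in the Dnmt3a,3b-labelled line. The share of all genes called fell there too, to almost none with Dnmt3a,3b, so this loss is not particular to Hox genes. With Dnmt1 some Hox genes were still called. With no normalization within arrays the split of higher and lower calls was 2 and 0 for Dicer-null over wild type and 5 and 1 with Dnmt1. Over all genes 27.8% and 11.4% were then called.

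Along HoxD the silent Hoxd10 lies on one side of Hoxd9 and Hoxd8. On the other side lie Hoxd4, detected on all 12 arrays, and Hoxd3, which was silent and whose annotated start precedes that of Hoxd4. The 250 bases before the annotated start of each are shown, since neighbours in 1 stretch differed in detection, with CG dinucleotides, the sites that Dnmt enzymes methylate, in capitals (RefSeq, GRCm38.p6, plus strand).
Hoxd10 (chr2:74691641-74691890): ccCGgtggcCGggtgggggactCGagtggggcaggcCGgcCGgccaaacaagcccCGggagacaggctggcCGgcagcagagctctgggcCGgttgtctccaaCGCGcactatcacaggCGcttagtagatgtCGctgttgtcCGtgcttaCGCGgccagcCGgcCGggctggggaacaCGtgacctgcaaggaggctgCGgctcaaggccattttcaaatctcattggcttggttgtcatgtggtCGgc
Hoxd9 (chr2:74697513-74697762): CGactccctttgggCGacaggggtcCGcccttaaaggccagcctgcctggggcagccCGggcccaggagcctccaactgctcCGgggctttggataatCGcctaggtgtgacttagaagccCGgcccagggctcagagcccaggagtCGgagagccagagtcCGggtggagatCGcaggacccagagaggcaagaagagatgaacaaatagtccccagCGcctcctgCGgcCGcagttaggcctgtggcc
Hoxd8 (chr2:74704365-74704614): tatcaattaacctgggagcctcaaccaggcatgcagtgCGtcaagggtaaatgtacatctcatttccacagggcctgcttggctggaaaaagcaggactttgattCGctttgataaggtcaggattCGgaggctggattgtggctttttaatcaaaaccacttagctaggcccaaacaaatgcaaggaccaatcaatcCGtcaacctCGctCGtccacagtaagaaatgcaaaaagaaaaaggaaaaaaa
Hoxd3 (chr2:74711743-74711992): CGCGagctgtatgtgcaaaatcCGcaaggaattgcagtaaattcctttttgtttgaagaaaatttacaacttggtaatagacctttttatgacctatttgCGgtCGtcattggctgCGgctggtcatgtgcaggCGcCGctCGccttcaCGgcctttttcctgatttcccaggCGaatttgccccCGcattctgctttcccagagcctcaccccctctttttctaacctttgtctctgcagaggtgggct
Hoxd4 (chr2:74721728-74721977): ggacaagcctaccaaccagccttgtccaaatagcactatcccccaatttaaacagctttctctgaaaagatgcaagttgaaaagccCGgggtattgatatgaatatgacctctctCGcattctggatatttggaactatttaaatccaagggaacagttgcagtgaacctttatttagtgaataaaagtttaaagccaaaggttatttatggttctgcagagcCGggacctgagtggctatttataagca
The silent Hoxd10 and Hoxd3 held 20 and 12 CG dinucleotides, and the detected Hoxd9, Hoxd8 and Hoxd4 held 13, 6 and 3. Windows were found for 22 Hox genes (24 windows). Their median was 12.5, against 6.0 over the 32851 windows of all genes used. The 6 windows of Hox genes called higher in a Dnmt-labelled line had a median of 6.5 (3 to 20). They came from 5 genes, with Hoxa10 counted more than once. No window was found for Hoxa4, Hoxb2, Hoxb7, Hoxb13 and Hoxc9, which were also called higher. The median was 16.0 (3 to 35) for the 10 windows of genes tested and not called so, and 12 (2 to 20) for the 7 of silent genes. No test was made of this, and DNA methylation was not measured on these arrays. The retinoic acid receptor half-site AGGTCA, on either strand, was in 25.0% of the Hox windows and in 14.0% of all windows. The Cdx motif TTTATG, on either strand, was in 20.8% of the Hox windows and 10.8% of all.

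Where a gene had more than 1 probe, the probes mostly gave the same direction with different size. For Hoxd9 the second probe gave 0.33, 0.62 and 0.53 in the 3 comparisons, and it passed the test in each when probes were fitted singly (adjusted p = 0.031, 0.00888 and 0.0136, limma). The second probe of Hoxb9, well above background on all 12 arrays, gave 0.13 for Dicer-null over wild type, against 0.70 for the brighter probe. In the Dnmt3a,3b-labelled line it gave -0.46 and was lower too (adjusted p = 0.0232). The second Hoxb2 probe, which lies on the minus strand in mm7 while the brighter one lies on the plus strand, gave 0.33 and 0.37 in the Dnmt1-labelled and Dnmt3a,3b-labelled lines, against 0.85 and 1.15, and was well above background on 0 of 4 arrays in Dicer-null RNA in both comparisons. The second Hoxa4 probe was well above background on 4 of the 12 arrays and did not enter the test. It went the other way, with -0.07 and -0.15 in the Dnmt1-labelled and Dnmt3a,3b-labelled lines, against 0.43 and 0.25 for the brighter probe. All 4 arrays of each of these comparisons lay below 0 for the second probe. Probes of different Hox genes shared at most 22 consecutive bases of 60.

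Genes that work with or on the Hox clusters were counted in the same way, against 40.5%, 23% and 21.2% of all genes called in the 3 comparisons. In the Dnmt-labelled lines the shares called were 20% and 30% for the TALE cofactors, 35.3% and 29.4% for the retinoic acid pathway, 33.3% and 25.9% for the Polycomb genes and 7.69% in each for the Trithorax list, and no list is read as particular from them. The TALE cofactors, homeodomain partners that bind DNA with Hox proteins, had 4 higher and 3 lower of 10 in Dicer-null against wild-type cells, led by Meis2 at 2.83 ± 0.04 and Meis3 at -0.87 ± 0.02 (SD, n = 2). In the Dnmt1-labelled lines 2 of 10 were higher and 0 lower, Meis2 at 0.90 ± 0.13 and Meis1 at 0.62 ± 0.27. In the Dnmt3a,3b-labelled lines 3 were higher and 0 lower, Meis2 at 0.72 ± 0.35. The median of the list was 0.29, 0.35 and 0.39 in the 3 comparisons.

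The retinoic acid pathway, the signal that switches on the low-numbered Hox genes, split in both directions. For Dicer-null over wild type 3 of 17 were higher and 6 lower, with Stra8, a retinoic acid target of germ cells, at 1.49 ± 0.05 and Cyp26a1, the enzyme that degrades retinoic acid, at -1.21 ± 0.08 (SD, n = 2). In the Dnmt1-labelled lines 3 were higher and 3 lower, and in the Dnmt3a,3b-labelled lines 3 and 2. Stra8 measured 1.57 ± 0.18 and 1.58 ± 0.35 there, and Cyp26a1 0.73 ± 0.07 and 0.90 ± 0.27. Crabp2, which carries retinoic acid to its receptor, was lower in both, at -0.58 ± 0.02 and -0.68 ± 0.03. In each line it was well above background on 1 of 4 arrays, of clone 27G5, so the values of clone 27H10 are only bounded.

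Cdx2, the caudal factor that drives tail-end Hox genes, was lower in Dicer-null cells at -2.10 ± 0.43 (SD, n = 2, adjusted p = 0.000863, limma) and higher in the Dnmt3a,3b-labelled lines at 0.80 ± 0.18 (adjusted p = 0.037). In Dicer-null RNA it was well above background on 2 of 4 and 1 of 4 arrays of these comparisons, all of clone 27H10, so the values of clone 27G5 are only bounded. It was the only one of the 3 measured ParaHox and Cdx genes called in either comparison. Polycomb genes had 9 higher and 5 lower of 27 for Dicer-null over wild type, led by Bmi1 (1.89 ± 0.16) and Phc2 (-1.07 ± 0.07), both parts of the Polycomb complex that holds Hox genes silent. In the Dnmt1-labelled lines 4 were higher and 5 lower, and in the Dnmt3a,3b-labelled lines 4 and 3, with Phc2 at 1.09 ± 0.21 and 1.04 ± 0.02 and Pcgf5 at 1.14 ± 0.26 and 0.94 ± 0.09. Of 13 Trithorax genes and H3K27 demethylases, 3 were higher and 1 lower for Dicer-null over wild type, and 0 higher and 1 lower in each Dnmt-labelled line.

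Of the genes next to the clusters 52.2%, 30.4% and 26.1% were called in the 3 comparisons. For Dicer-null over wild type 11 of 23 were higher and 1 lower (median 0.27), in the Dnmt1-labelled lines 1 was higher and 6 lower (median -0.19), and in the Dnmt3a,3b-labelled lines 1 and 5 (median -0.13). Evx1, a homeobox gene at the tail end of HoxA, measured 1.73 ± 0.21 for Dicer-null over wild type and -1.22 ± 0.34 and -0.92 ± 0.17 in the Dnmt1-labelled and Dnmt3a,3b-labelled lines (SD, n = 2). Of the Hox cluster non-coding RNAs, 3 of 11 were on the array and 1 was tested, and it was not called in any comparison.

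Markers of other cell types were read against the 23% and 21.2% of all genes called with Dnmt1 and with Dnmt3a,3b. Trophoblast markers were higher in 5 of 8 with Dnmt1 and 6 of 8 with Dnmt3a,3b, 0 lower, with medians of 1.94 and 1.78, and Krt7, a simple-epithelium keratin, measured 2.81 ± 0.30 and 2.72 ± 0.05 (SD, n = 2). All 8 were well above background on both arrays of each Dnmt-labelled line, and 7 of 8 on every array of each Dicer-null clone, while Cdx2 was so on 0 of 6 arrays of clone 27G5. Neuroectoderm markers had 1 of 8 higher and 4 lower in each labelled line, with Map2, a neuronal cytoskeleton protein, at -1.40 ± 0.21 and -1.24 ± 0.25. Mesoderm markers had 2 of 8 higher and 2 lower in each. The other marker lists had shares called of 12.5% to 28.6%, near or below those of all genes. Primitive endoderm markers had 1 higher and 1 lower of 8 with Dnmt1 and 1 and 0 with Dnmt3a,3b, fibroblast markers 2 and 2 of 14 and 1 and 1, and pluripotent ES cell markers 2 and 0 of 8 and 1 and 0. The part of these cell types in the Hox values was not tested.

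Of the 37 genes 15 carried the flag on all 12 arrays, so many Hox signals were close to background, and the offset of 50 added during background correction pulls such ratios towards 0. With an offset of 10 Hoxd8 measured 1.11 and 1.25 in the Dnmt1-labelled and Dnmt3a,3b-labelled lines. For Dicer-null over wild type Hoxd8 measured 0.99, Hoxd9 0.96 and Hoxb13 1.07. The counts of Hox genes called were then 10, 12 and 12 in the 3 comparisons, against 6, 9 and 10. Over all genes 41.7%, 25% and 23.6% were called with that offset, against 40.5%, 23% and 21.2%.

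**Figure D4:**
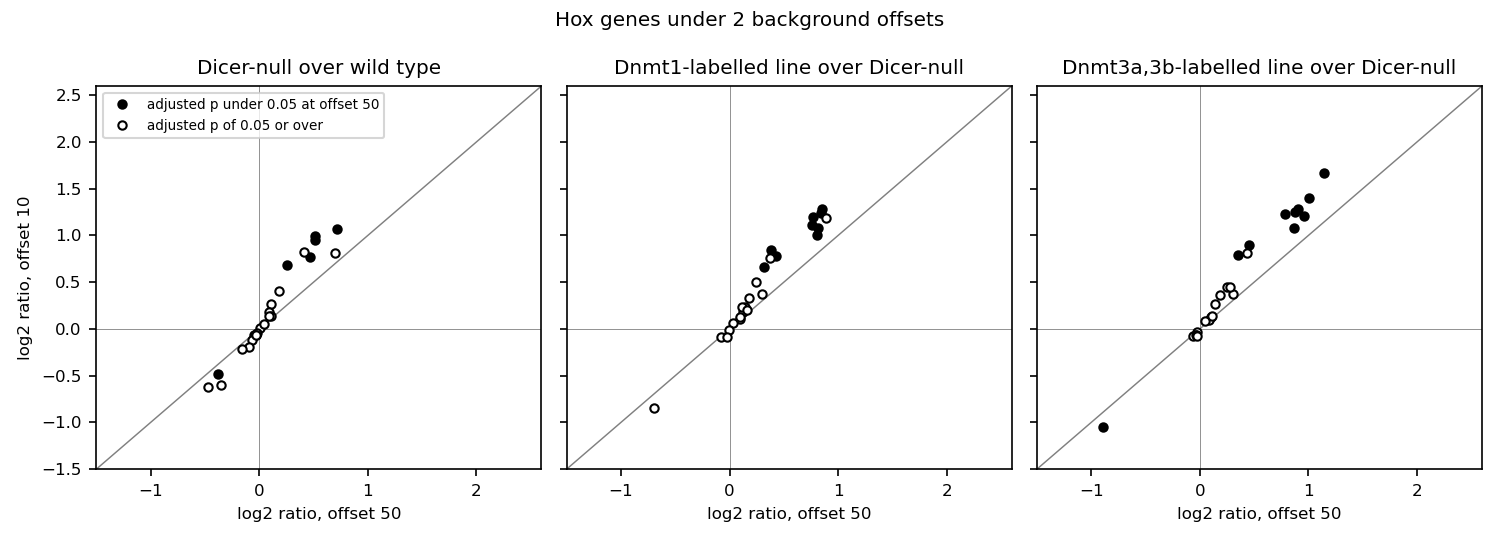
Log2 ratio of each of the 25 Hox genes with a background offset of 50 (horizontal axis) and of 10 (vertical axis) in the 3 comparisons; the diagonal marks equal values and filled points had an adjusted p under 0.05 at offset 50. Ratios far from 0 lie beyond the diagonal, as for Hoxd8 with Dnmt1, at 0.76 with offset 50 and 1.11 with offset 10.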

How the data were processed

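Expression was measured on 12 Agilent 2-colour arrays of mouse ES cell RNA (45018 spots each). The deposited files held mean signal and median background intensity per spot, and a log10 ratio of dye-normalised signals, per the file headers. The software was Agilent Feature Extraction, version 9.5.1.1 on 8 arrays and version 9.1.3.1 on those with wild-type RNA. The authors' series value table was deposited on a log2 scale, with a sign that matched the first-named cells over their partner (r = 0.968 to 1.00 with the scanner ratio) and with centring unstated. Its column medians lay between -0.14 and 0.17.

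From the intensities, background was corrected by normexp (offset 50) and ratios were normalised by loess in R 4.3.3 with limma 3.58.1. Spots of a probe and the 2 dye-exchanged arrays of a pair were averaged, and the brightest probe stood for its gene. A gene was tested when its probe was on all 12 arrays and well above background, for 1 RNA of 1 pair or more, on both arrays. The 6 ratios were fitted with 1 coefficient per comparison (3 residual degrees of freedom), and a gene was called at a Benjamini-Hochberg adjusted p under 0.05 over 20048 genes. SD is over clones. The wild-type cells were taken as 1 RNA, which the labels do not state, so their spread is left out. Bounds raise a dim channel to the lowest signal well above background, after Aquantile scaling between arrays, and are averaged over the clones. The number of arrays limits the precision. The files had 0 unused per-sample columns.

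Probe positions are on mm7 as the headers of 8 arrays give them; GRCm38.p6 served for names and RefSeq sequences. Windows on 1 chromosome were not used in the promoter shares. The rule found 38 Hox genes, of which 1, and 1 gene of another list, are not reported here and entered no count, though both stayed in the fit. Every other Hox gene tested is named, and of each other list at most 4 members with the largest moderated statistic. The members, lists and alternatives were chosen with earlier results of these data known.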

Additional observations from a re-analysis of the deposited data

Results flagged for a closer look

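Hoxa9 in the Dnmt3a,3b-labelled line over Dicer-null lay above 0 on both arrays of clone 27G5 and below 0 on both of clone 27H10. Its log2 ratio was 0.35 in clone 27G5 and -0.15 in clone 27H10, a difference of 0.51, and this difference was not tested.

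Hoxd13, the last HoxD gene, did the same in both labelled lines. With Dnmt1 it measured 0.48 in clone 27G5 and -0.17 in clone 27H10, a difference of 0.65, and with Dnmt3a,3b 0.30 and -0.08, a difference of 0.39. Neither difference was tested, both share the Dicer-null RNA of the clone, and slide and clone cannot be told apart.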

How the results depend on the processing

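Of the 25 Hox values of each comparison under 15 or 16 alternatives each, no called value changed sign. For Dicer-null over wild type, 28 values lost their call and 22 gained one, with Dnmt1 32 and 21, and with Dnmt3a,3b 40 and 15. In each comparison 0 of the called values kept its call under every alternative run.

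The count of Hox genes called for Dicer-null over wild type (6) was 11 with the scanner's log ratio, 11 with the authors' value table, 10 with offset 10, 3 with a filter that required both channels of all 12 arrays, 3 among genes detected in wild type (an alternative chosen after seeing the data), 2 with no normalization within arrays, 0 with shared RNAs modelled, and 0 to 0 with a clone left out. With Dnmt1 the count (9) was 0 when each comparison was fitted alone (limma, 10 at an unadjusted p under 0.05), 2 with the strict filter, 1 with shared RNAs modelled, and 4 to 8 with a clone left out. With Dnmt3a,3b the count (10) was 3 with the strict filter and 1 with shared RNAs modelled. No Hox gene was called there with a clone left out. In this comparison and for Dicer-null over wild type, a clone left out also lowered the share of all genes called. The strict filter left 10 Hox genes to test. Over all genes it called 42.9%, 24.4% and 22.8% in the 3 comparisons. With each comparison fitted alone, 1.13% of all genes were called with Dnmt1, against 23%. The fall to 0 there was not particular to Hox genes. For Dicer-null over wild type, 40.5% of all genes were called with the scanner's log ratio and with the authors' value table. With no normalization within arrays it was 27.8%. With no normalization within arrays the median of all genes moved to 0.12 in the third comparison, and a clone left out leaves 1 ratio, assumed to vary like the others. The remaining causes were not tested. Of the 37 genes, 15 were detected when all 12 arrays were required, 30 when 1 array was enough, and 35 with the scanner's flag for a positive and significant signal, against 27, so that the silent genes numbered 7 and 2 under the last 2 rules, against 10.

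No paired analysis was possible with the replicate numbers of the labels because they mark dye-exchanged arrays of the same 2 RNAs, which were averaged. The pairing by clone is used in the difference of the Dnmt-labelled lines, whose values within each clone stand beside that test. Dim signals limit the ratios for Dicer-null over wild type in particular, since 17 of the 37 genes were not well above background on any wild-type array.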
